A study of Mus musculus with 31 samples.

Results

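The interferon response genes described here were Irf1, Irf7, Irf8, Isg15, Ifit1, Ifit3, Usp18, Rsad2 and Ifi44. These 9 genes were chosen by name, with earlier results of these data known. The annotation used paired 8 of them with 11 of the 45037 probe sets left on the Affymetrix mouse arrays once control probe sets were taken out. The level of Ifi44 was not analysed here. Irf8 had 2 probe sets, Rsad2 had 3, and the other genes had 1 each. Those of Irf8 and Rsad2 are numbered here in the order of their Affymetrix identifiers, as Irf8 (1) and (2) and Rsad2 (1), (2) and (3). The Isg15 probe set is annotated to Gm9706 as well, so that the 2 transcripts cannot be told apart in any value given for Isg15.

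The study asked how loss of a copy of the coactivator Crebbp changes fetal liver hematopoietic stem cells, and measured 23 samples on 31 arrays in 4 experiments. FL HSCs (Lin-, Sca-1+, AA4.1+, c-Kit++ cells sorted from thawed fetal livers at 14.5 days post coitus, 15 embryos pooled per sample) were compared between 2 Crebbp+/- and 2 WT littermate samples and between 2 Ep300+/- and 2 WT littermate samples, all on C57BL/6, with 2 technical arrays for each sample. FL HSCs of 4 Cdkn1a-/- and 3 WT samples, labelled B6/129Sv, came from separately purchased stocks (B6;129S2-Cdkn1a tm1Tyj and B6129SF2), so that genotype and stock cannot be told apart in that experiment. Mouse embryonic fibroblasts (MEFs) on C57BL/6 were compared between 4 Crebbp+/- and 4 WT embryos of 14.5 days post coitus, 1 of each genotype from each of 4 litters. Crebbp (CBP) and Ep300 (p300) encode related acetyltransferases that act as coactivators, and Cdkn1a encodes the cell cycle inhibitor p21. Levels are log2 values from GCRMA normalization, run apart in each experiment, and are compared only within an experiment. Arrays have no read depth, and the small number of samples limits the precision.

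Interferons are cytokines that cells release when they sense viral nucleic acids, and hematopoietic stem cells carry their receptors. Type I interferon signals through the kinases JAK1 and TYK2 to a complex that includes IRF9 and binds the interferon-stimulated response element in promoters. Interferon gamma acts through another promoter element, the gamma-activated site. Irf1, Irf7 and Irf8 encode transcription factors of the response, Isg15 a ubiquitin-like modifier, Usp18 the protease that removes it and also restrains the type I receptor, and Ifit1, Ifit3 and Rsad2 (viperin) antiviral effectors. The Trim genes next to Trim5 and the Ifi200 genes, 2 clusters of interferon-inducible genes, hold probe sets that fell in Cdkn1a-/- FL HSCs, and the comparison asks whether the interferon response genes moved with them.

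Promoters were searched for the elements named above, which only some of the members held. In RefSeq windows of build GRCm38.p6 (250 bases before to 50 bases after the start), the interferon-stimulated response element, searched on both strands as GAAA and a second GAAA 2 bases after it (TTTC and TTTC on the other strand), was found in 4 of 10 windows of 8 members, or 40.0%, against 3.44% of all 32851 windows in the table. Usp18 was not searched here and is not among these 8. The matches lay in Isg15, Ifit1, Ifit3 and Rsad2. The windows of Irf1, Irf7, Irf8 and Ifi44 held none. Among the genes set beside the members, 8 of 13 windows of the Trim5 cluster (61.5%) and 10 of 14 windows of the Ifi200 genes (71.4%) held a match. Of the genes with a called probe set in Cdkn1a-/- FL HSCs described below, Trim34a, Trim12a and Trim30d held a match, and Ifi202b and Oasl2 held none. A match is a run of letters and not a shown binding site. The windows below, 30 bases each and written 5′ to 3′ on the gene's strand, carry the match in capitals. They are shown for the members with a match and for the 3 Trim genes with a called probe set in Cdkn1a-/- FL HSCs.
Isg15: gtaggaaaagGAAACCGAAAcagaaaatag
Ifit1: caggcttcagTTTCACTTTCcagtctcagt
Ifit3: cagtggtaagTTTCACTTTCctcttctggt
Rsad2: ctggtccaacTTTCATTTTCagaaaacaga
Trim34a: tggtttggagTTTCAGTTTCttttctctgc
Trim12a: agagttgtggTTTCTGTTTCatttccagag
Trim30d: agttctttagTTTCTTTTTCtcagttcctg
The stretches lie at chr4:156200871-156200900 (minus strand) for Isg15, chr19:34640775-34640804 (plus) for Ifit1, chr19:34583363-34583392 (plus) for Ifit3 and chr12:26456553-26456582 (minus) for Rsad2. Those of Trim34a (plus), Trim12a (minus) and Trim30d (minus) lie at chr7:104244457-104244486, chr7:104315466-104315495 and chr7:104507871-104507900. Isg15 held 3 overlapping matches, of which the middle one is shown, and Ifit1 and Ifit3 held 2 each. The gamma-activated site, searched as TTCNNNGAA, was found in 1 window each of Irf1 and Irf8, and in 8.30% of all windows.

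Before the results, the libraries were checked against their labels. Cdkn1a-/- samples read 2.18 to 2.25 at 1 Cdkn1a probe set, against 2.44 to 3.86 in WT samples, and overlapped with them at the other. Crebbp was lower in all 4 Crebbp+/- MEFs than in all WT MEFs at 4 of its 4 probe sets, and in FL HSCs at 2 of 4. The single Ep300 probe set read 9.46 and 9.47 in Ep300+/- samples, against 9.53 and 9.60 in WT samples. Where these probe sets lie relative to the inactivated part was not examined. WT sample 3 of the Cdkn1a experiment stood apart: its macrophage gene C1qb read 9.33 against at most 2.05 in the other 6 samples, its erythroid gene Alas2 read 10.97 against at most 1.96, and its hepatocyte gene Alb read 14.54 against at most 9.50. Differences of the tested members without it are given beside those with it. Since these are bulk samples, fewer cells of a type and less RNA per cell cannot be told apart.

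Which members could be tested differed by experiment. A probe set was tested where its highest sample reached log2(100), that is 6.64. In Crebbp and Ep300 FL HSCs this kept 3 of 11 probe sets (Irf1, Irf8 (1) and Rsad2 (3)), in Cdkn1a FL HSCs 8 of 11, of 6 genes, and in MEFs 3 of 11 (Irf1, Isg15 and Ifit3). In MEFs both probe sets of Irf8 (1.76 to 2.15) and all 3 of Rsad2 (2.03 to 2.22) lay far under the minimum in all 8 samples. Ifit3 passed it in MEFs (6.65 to 7.85) and lay under it in every FL HSC sample, at 2.36 to 2.99 in the Crebbp and Ep300 experiments. Irf7 stayed under the minimum in all 23 samples. Rsad2 (1) stayed near the floor of the arrays in every sample, also where the other 2 probe sets of the gene did not.

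**Figure D1:**
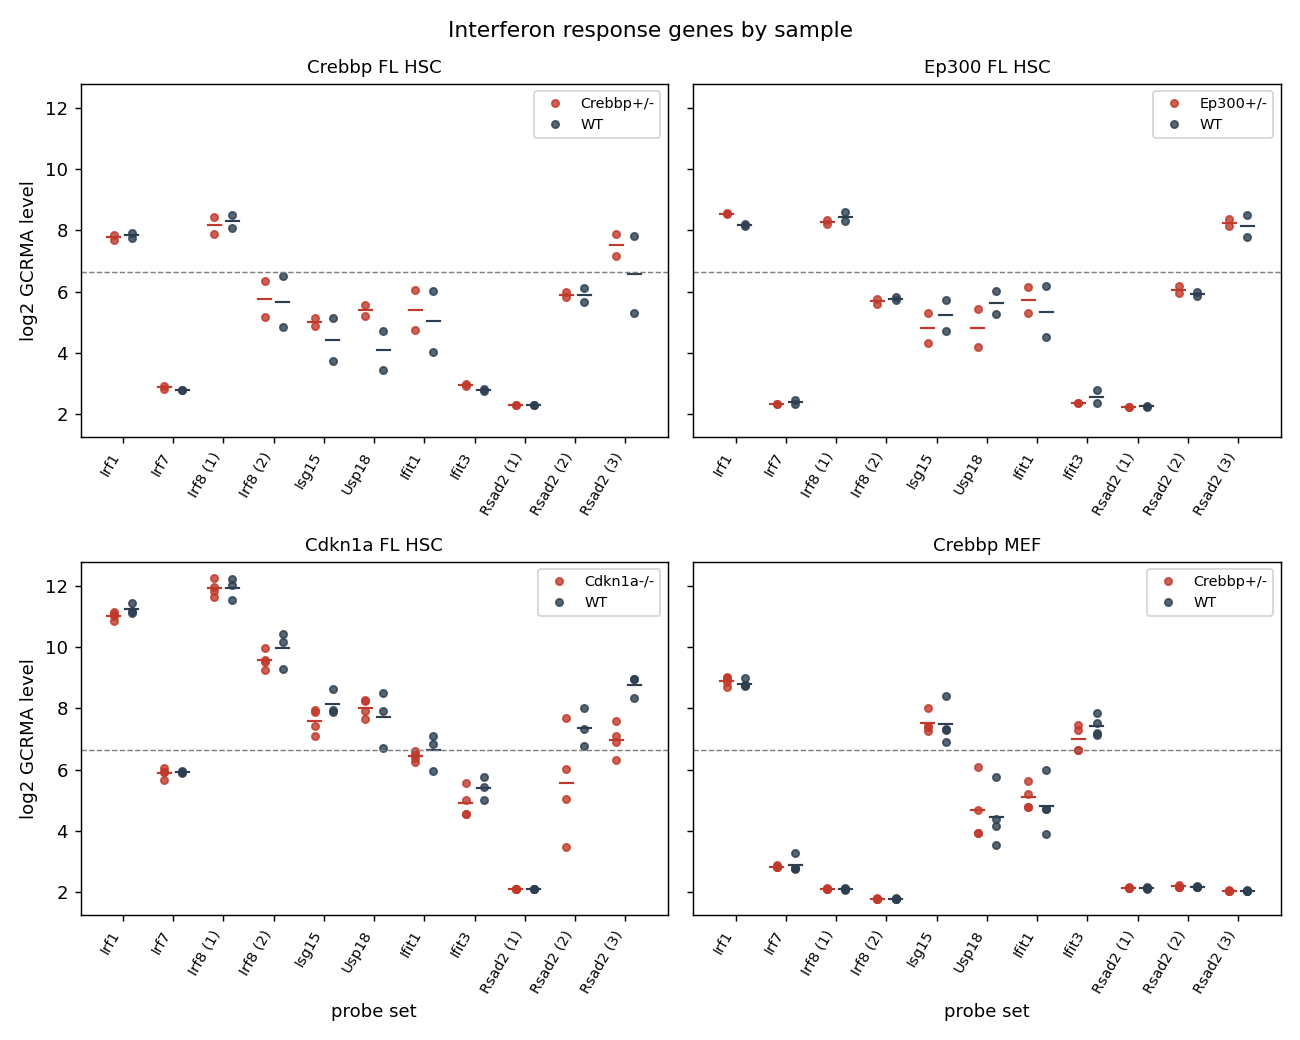
Log2 GCRMA level (vertical axis) of the 11 probe sets of the interferon response genes in every sample of the 4 experiments, mutant samples in red to the left of WT samples in dark blue, with a short line at each group mean and a dashed line at the minimum of 6.64. Numbers in brackets count the probe sets of Irf8 and Rsad2 in the order of their identifiers. Among the probe sets tested, mutant and WT samples lie apart for Rsad2 (3) in Cdkn1a FL HSCs and for Irf1 in Ep300 FL HSCs, and overlap elsewhere.

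In Cdkn1a-/- FL HSCs, none of the 8 member probe sets tested was called. The single one whose groups lay apart was Rsad2 (3), which was 3.42-fold lower and did not pass the adjusted test. A call here is an adjusted p (limma, Benjamini-Hochberg over all probe sets tested) under 0.05 with a fold change over 1.5, and 0.405% of the 20962 probe sets tested were called, 74 lower (0.353%) and 11 higher. Before adjustment, at a p under 0.05 and the same fold, 1 member probe set passed, Rsad2 (3), against 4.05% of all probe sets. The median change of the 8 probe sets was -0.30 (log2), against 0.06 over all probe sets, with 7 lower and 1 higher.

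Among the transcription factors, Irf1 read 11.08, 11.14, 11.02 and 10.84 in Cdkn1a-/- samples, against 11.19, 11.43 and 11.12 in WT samples. Cdkn1a-/- sample 2 lay above WT sample 3, so that the groups overlapped, and the difference was -0.22 ± 0.12 (SE; limma, adjusted p = 0.717, 95% confidence interval -0.50 to 0.06). Irf8, which directs monocyte and dendritic cell development, read 11.97, 12.27, 11.83 and 11.65 at probe set (1) in Cdkn1a-/- samples, against 11.54, 12.23 and 12.02 in WT samples. The ranges covered one another, and the interval of the difference ran from -0.51 to 0.50. Its second probe set, at 9.25 to 9.98 in Cdkn1a-/- samples against 9.30 to 10.44 in WT samples, differed by -0.38 ± 0.30 (limma, adjusted p = 0.722). Without WT sample 3 the Irf8 differences were 0.04 at probe set (1) and -0.15 at probe set (2), and that of Irf1 was -0.285. Irf7, the factor that amplifies the type I response, lay at 5.67 to 6.04 in Cdkn1a-/- samples and 5.90 to 5.97 in WT samples and was not tested.

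Isg15 read 7.93, 7.44, 7.11 and 7.90 in Cdkn1a-/- samples, against 7.90, 7.95 and 8.63 in WT samples. The highest value was that of WT sample 3, and the difference of -0.56 ± 0.27 (limma, adjusted p = 0.715) was -0.33 without that sample. Usp18 read 8.26, 7.90, 7.64 and 8.23 in Cdkn1a-/- samples, against 6.69, 8.50 and 7.92 in WT samples. Its WT samples spanned more than its Cdkn1a-/- samples, and WT sample 1 set the direction: the difference was 0.31 ± 0.42 with it (limma, adjusted p = 0.818) and -0.20 without it. Without WT sample 3 it was 0.41.

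Ifit1, which binds foreign RNA ends, read 6.60, 6.24, 6.39 and 6.52 in Cdkn1a-/- samples, against 6.83, 7.10 and 5.95 in WT samples. The groups overlapped around the minimum, with a difference of -0.19 ± 0.27 to be read as imprecise there (limma, adjusted p = 0.826). WT sample 3 was the lowest, and without it the difference was -0.53 (limma, adjusted p = 0.387). Ifit3 lay at 4.55 to 5.56 in Cdkn1a-/- samples and 4.995 to 5.76 in WT samples, under the minimum in all 7.

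Rsad2, whose product blocks viral replication at lipid membranes, read 7.58, 6.32, 6.89 and 7.10 at probe set (3) in Cdkn1a-/- samples, against 8.96, 8.96 and 8.33 in WT samples. All 4 Cdkn1a-/- samples lay below all 3 WT samples, as did 3.08% of all probe sets tested. The difference was -1.77 ± 0.32 (95% confidence interval -2.53 to -1.01), with an unadjusted p of 0.001 in the fit across all probe sets and a limma adjusted p = 0.123. Over the alternative limma fits the difference ran from -1.98 to -1.56 and the adjusted p from 0.0541 to 0.54, so that Rsad2 was called in none of them. At probe set (2) Rsad2 read 6.02, 3.48, 5.03 and 7.69 in Cdkn1a-/- samples, against 7.33, 6.77 and 8.01 in WT samples. Here Cdkn1a-/- sample 4 lay among the WT samples, and the difference of -1.81 ± 0.95 had a limma adjusted p = 0.717. Without WT sample 3 it was -1.49.

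Markers of other cell types differed between these groups too, in part through WT sample 3. The summed linear level of 9 plasmacytoid dendritic cell probe sets was 1147 to 3257 in Cdkn1a-/- samples, against 3444 to 5873 in WT samples. That list holds Bst2, which is also an interferon target, and without Bst2 (looked at after the values were seen) the sums overlapped, at 549.2 to 2567 in Cdkn1a-/- samples and 2342 to 2602 in WT samples. The summed level of 14 erythroid probe sets was 108.5 to 2224 in Cdkn1a-/- samples, against 13710 to 147900 in WT samples. In WT samples 1 and 2 the erythroid sum was nearly all from 1 beta-globin probe set, while Alas2 and Slc4a1 were at their floor. All 9 erythroid probe sets tested with WT sample 3 were lower in Cdkn1a-/- samples, with no call. Without that sample, 3 were tested, 2 higher and 1 lower, with a median of 1.60 and no call. The macrophage sums overlapped, at 7640 to 14380 in Cdkn1a-/- samples and 8493 to 34300 in WT samples. All 14 macrophage probe sets tested were lower in Cdkn1a-/- samples, with a median of -2.19 beside 0.06 over all probe sets and no call. Without WT sample 3, 5 of them were tested, 4 lower and 1 higher, with a median of -0.19. Of the fetal hepatocyte list 14 of 17 were lower with that sample, and 12 of 13 were higher without it, again with no call. The part of these cells in the Rsad2 values was not tested. Without WT sample 3, the Rsad2 difference was -1.98 (limma, adjusted p = 0.123).

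The same samples held called probe sets among the Trim and Ifi200 genes. Of the Trim5 cluster, 13 of 20 probe sets were tested and 3 were called, all lower. Trim12a read 2.29, 2.24, 2.33 and 2.25 in Cdkn1a-/- samples, against 8.61, 8.66 and 9.41 in WT samples. The Cdkn1a-/- values lay near the floor of the arrays, where background correction sets how large a difference looks, and the difference was -6.62 ± 0.20 (limma, adjusted p = 6.2e-05). Trim34a and Trim30d were also called, with differences of -6.13 and -4.71. Their Cdkn1a-/- samples stayed at or below 4.74, and their WT samples lay at 8.28 or above. Other probe sets of the cluster differed from these: another one of Trim34a read 10.94 to 11.17 in Cdkn1a-/- samples and 10.84 to 11.34 in WT samples, and one of Trim30a read 13.10 to 13.19 in Cdkn1a-/- samples and 13.03 to 13.27 in WT samples. Further probe sets of these genes had all Cdkn1a-/- samples below all WT samples without a call. The one shared by Trim30d and Trim30a differed by -2.23 (limma, adjusted p = 0.0516), the one shared by Trim34b and Trim34a by -2.22 (limma, adjusted p = 0.0739) and another of Trim30a by -1.41 (limma, adjusted p = 0.35). Before adjustment, 7 of the 13 passed as lower and 1 as higher, against 4.05% of all probe sets. The Trim5 and Ifi200 lists were chosen with earlier results of these data known, so that their counts are no independent evidence of a loss. Trim21, an antibody receptor in the cytosol, was -0.52 at one probe set and 0.78 at another, with neither called.

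Of the Ifi200 genes, 13 of 17 probe sets were tested and 2 were called, both of Ifi202b, which encodes a DNA-binding protein. At its own probe set it read 2.16, 2.16, 2.19 and 2.17 in Cdkn1a-/- samples, against 7.15, 8.03 and 8.99 in WT samples (difference -5.89 ± 0.39, limma, adjusted p = 0.00179). The other one, which it shares with LOC100044068, differed by -6.04 (limma, adjusted p = 0.00737). Next to these, the DNA sensor Aim2 read 10.37 to 10.46 in Cdkn1a-/- samples and 10.44 to 10.56 in WT samples. Mndal, another member of the family, read 13.00 to 13.39 at one of its probe sets in Cdkn1a-/- samples and 13.33 to 13.70 in WT samples. Ifi209 differed the other way, by 1.02 and 1.00 at its 2 probe sets, without a call.

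**Figure D2:**
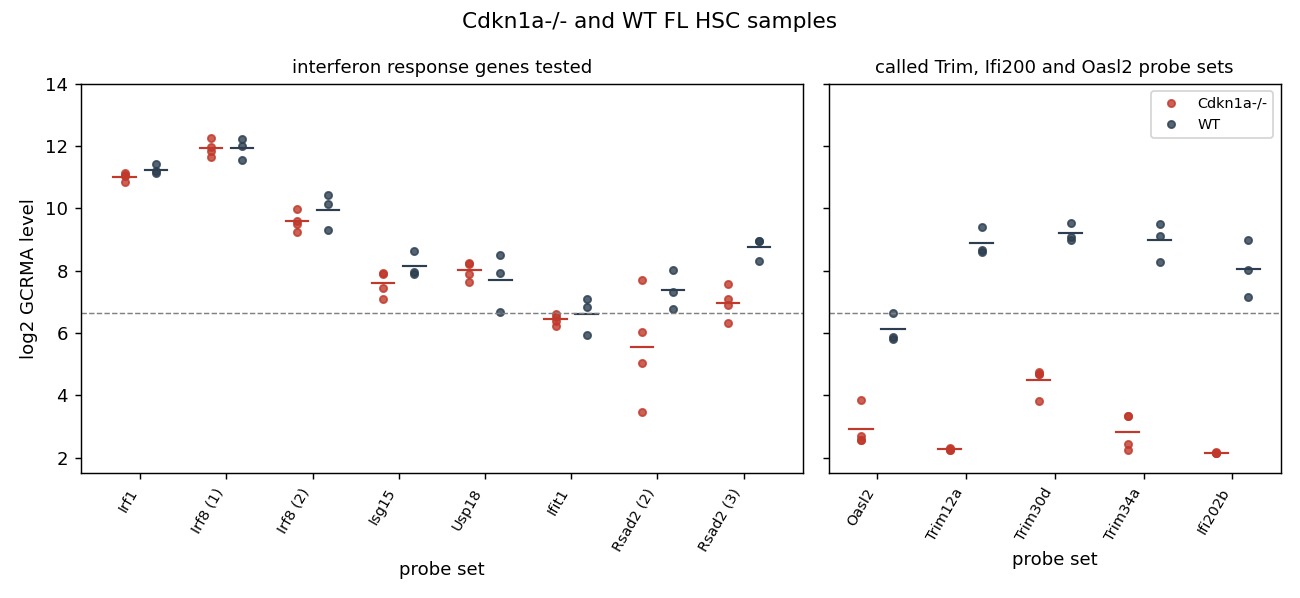
Log2 GCRMA level (vertical axis) in the 4 Cdkn1a-/- (red) and 3 WT (dark blue) FL HSC samples, for the 8 member probe sets tested (left panel) and for the called single-gene probe sets of Oasl2, the Trim5 cluster and Ifi202b (right panel), with a short line at each group mean and a dashed line at the minimum of 6.64. The called probe sets of Trim12a, Trim34a, Trim30d and Ifi202b differ by -6.62 to -4.71 and that of Oasl2 by -3.20. The largest member difference is -1.81. The right panel holds only probe sets picked because they were called, so that its differences are large by that choice.

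The rest of the pathway was read from 6 lists, of receptors and signalling, other interferon regulatory factors, nucleic acid sensors, other type I targets, interferon gamma targets and ligands. In Cdkn1a FL HSCs 133 of their 208 probe sets were tested, 59 higher and 74 lower, with a median change of -0.06 and 1 call. The call was Oasl2, a ubiquitin-like antiviral protein of the oligoadenylate synthetase family, which read 2.57, 2.71, 3.84 and 2.57 in Cdkn1a-/- samples, against 6.65, 5.82 and 5.89 in WT samples. Its difference was -3.20 ± 0.38 (limma, adjusted p = 0.0272), only WT sample 1 reached the minimum, and the call was kept in 3 of 11 alternative limma fits. Without WT sample 3 it was lost (limma, adjusted p = 0.065). Xaf1, a pro-apoptotic interferon target, differed in opposite directions at 2 probe sets, by -1.15 and 0.98, with neither called. None of the 7 probe sets of interferon ligands reached the minimum.

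Of the receptors and signalling genes, none of 23 probe sets was called. Il10rb, a receptor chain shared with interferon lambda, had the smallest p, with 8.69 ± 0.14 in Cdkn1a-/- samples and 9.27 ± 0.28 in WT samples (SD, n = 4 and 3; limma, adjusted p = 0.373). Among the 14 probe sets of other interferon regulatory factors tested, 7 were higher and 7 lower, with none called. Irf3 had the smallest p, at 1 of its 4 probe sets, with a difference of 1.37 (limma, adjusted p = 0.68). It read 7.52 to 8.56 there in Cdkn1a-/- samples and 5.17 to 7.51 in WT samples, lowest in WT sample 3. Irf5 differed by -0.55 and 0.10 at its 2 probe sets. Of the nucleic acid sensors, none of 19 was called. The RNA sensor gene Ddx58 (RIG-I) differed by -0.70 and its adaptor Mavs by 0.50, each at 1 probe set and uncalled. Of 32 probe sets of the interferon gamma list, 24 were lower and 8 higher with a median of -0.18, and none was called. Those with the smallest p were of H2-D1 (-0.32 and -0.25) and H2-K1 (-0.27). The whole list holds 11 probe sets of H2-D1 and 6 of H2-K1, so that these counts are of probe sets and not of genes.

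In Crebbp+/- FL HSCs, none of the 3 member probe sets tested was called, where 0.383% of 13332 probe sets were, 41 lower and 10 higher. Before adjustment no member passed, against 10% of all probe sets. Irf1 read 7.85 and 7.69 in Crebbp+/- samples, against 7.75 and 7.92 in WT samples, and Irf8 (1) read 7.89 and 8.45 in Crebbp+/- samples, against 8.09 and 8.51 in WT samples. Pair by pair, Irf8 differed by less than the gap between the pairs, with -0.13 ± 0.11 (limma, adjusted p = 0.518), and Irf1 by -0.06 ± 0.12 (limma, adjusted p = 0.812).

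Among the effectors, Rsad2 (3) read 7.88 and 7.16 in Crebbp+/- samples, against 7.82 and 5.31 in WT samples. WT sample 2 was the low one, and the difference of 0.95 ± 0.47 (limma, adjusted p = 0.29) was 0.06 without the second pair and 1.85 without the first. Of the probe sets under the minimum, Isg15 read 5.15 and 4.88 in Crebbp+/- samples against 5.12 and 3.73 in WT samples. Usp18 read 5.56 and 5.22 in Crebbp+/- samples against 4.70 and 3.45 in WT samples. Ifit1 read 6.05 and 4.74 in Crebbp+/- samples against 6.01 and 4.04 in WT samples. WT sample 2 was thus the lowest of the 4 samples for each of Rsad2 (3), Isg15, Usp18 and Ifit1. It was the highest at Rsad2 (2), under the minimum, with 5.99 and 5.82 in Crebbp+/- samples against 5.66 and 6.125 in WT samples. Technical arrays of the same sample differed by up to 1.02 at Rsad2 (3) and by up to 2.02 at Ifit1.

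Of the 6 pathway lists, 86 probe sets were tested in Crebbp+/- FL HSCs, 55 higher and 31 lower, with none called and a median of 0.05 beside 0.05 over all probe sets. Before adjustment, 8 passed as higher and 1 as lower, or 9 of 86, beside 10% of all probe sets. They were not spread evenly: of the 29 probe sets of other type I targets tested, 6 passed as higher and 1 as lower. The sensors and the other regulatory factors each held 1 that passed as higher, and the remaining lists held none. Among the type I targets with the smallest p, Ifi27, a mitochondrial and nuclear membrane protein gene, averaged 7.70 ± 0.28 in Crebbp+/- samples and 6.80 ± 0.12 in WT samples (SD, n = 2 each; limma, adjusted p = 0.0518). Rtp4 averaged 7.68 ± 0.14 in Crebbp+/- samples and 6.69 ± 0.01 in WT samples (SD, n = 2 each; limma, adjusted p = 0.0581), and 16.1% of all probe sets tested lay apart in that direction. Xaf1 differed by 1.06, with both Crebbp+/- samples above both WT samples, and the RNA-activated kinase gene Eif2ak2 by 1.17, with overlapping groups. Neither was called. The summed level of plasmacytoid dendritic cell probe sets was 655.0 and 720.3 in Crebbp+/- samples, against 405.3 and 342.1 in WT samples. Without Bst2, itself an interferon target, it was 466.1 and 555.5 in Crebbp+/- samples, against 240.0 and 210.1 in WT samples. That of erythroid probe sets was 398.2 and 335.2 in Crebbp+/- samples, against 940.2 and 872.7 in WT samples. Fetal hepatocyte sums were 717.3 and 972.6 in Crebbp+/- samples, against 244.5 and 1713 in WT samples, so that WT sample 2 was the highest. Macrophage sums were 944.9 and 2563 in Crebbp+/- samples, against 1320 and 2461 in WT samples. The part of such cells in these values and in those of the members was not tested.

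In Ep300+/- FL HSCs no probe set of 13332 was called (0.0%), members included, and the 104 that passed before adjustment (0.78%) held no member. Irf1 read 8.53 and 8.56 in Ep300+/- samples, against 8.15 and 8.21 in WT samples. Both Ep300+/- samples lay above both WT samples, as did 14.1% of all probe sets tested, and the difference was 0.36 ± 0.12, a 1.29-fold change (limma, adjusted p = 1.0). Irf8 (1) read 8.19 and 8.34 in Ep300+/- samples, against 8.30 and 8.60 in WT samples. Rsad2 (3) read 8.36 and 8.13 in Ep300+/- samples, against 7.79 and 8.49 in WT samples, with an interval of -1.10 to 1.31 for the difference. Under the minimum, Isg15, Usp18 and Ifit1 were each higher in the second pair than in the first, in both genotypes.

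The Crebbp and Ep300 effects were compared in the same fit. The Crebbp effect minus the Ep300 effect was -0.42 ± 0.18 for Irf1 (limma, adjusted p = 0.356), 0.05 ± 0.15 for Irf8 and 0.85 ± 0.66 for Rsad2, and none passed the test. For the 6 pathway lists in Ep300+/- FL HSCs, 30 probe sets were higher and 56 lower with a median of -0.04 beside -0.02 over all. Tor3a, an interferon-inducible ATPase gene, had the smallest p among the type I targets and was not called. It averaged 6.13 ± 0.21 in Ep300+/- samples and 6.73 ± 0.44 in WT samples (SD, n = 2 each).

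**Figure D3:**
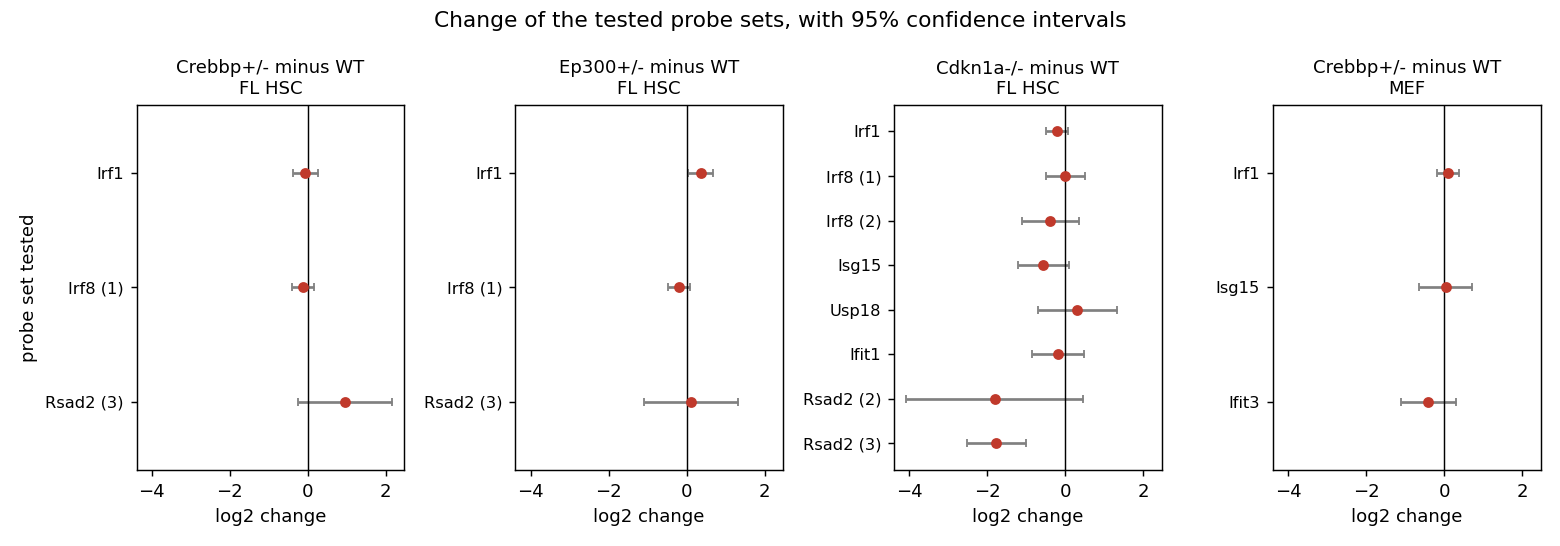
Change of each tested member probe set, mutant minus WT, on the log2 scale (horizontal axis), as a point with its 95% confidence interval from limma, in the 4 comparisons. Numbers in brackets count the probe sets of Irf8 and Rsad2 in the order of their identifiers. The 2 intervals that do not cross 0 are those of Irf1 in Ep300+/- FL HSCs (0.04 to 0.69) and of Rsad2 (3) in Cdkn1a-/- FL HSCs (-2.53 to -1.01), and neither probe set was called.

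In Crebbp+/- MEFs, again no probe set of 15502 was called (0.0%), and the 149 that passed before adjustment (0.961%) held no member. Irf1 read 8.70, 9.03, 8.996 and 8.87 in Crebbp+/- MEFs of litters 1 to 4, against 8.98, 8.75, 8.75 and 8.72 in their WT littermates. It was higher in 3 of 4 litters, by 0.09 ± 0.11 (limma, adjusted p = 0.859). Isg15 read 7.25, 8.004, 7.44 and 7.38 in Crebbp+/- MEFs, against 6.90, 7.32, 8.39 and 7.30 in WT MEFs. Its difference of 0.04 ± 0.27 had an interval of -0.64 to 0.72, and it was higher in 3 of 4 litters, litter 3 being the exception. Ifit3 read 6.65, 7.46, 6.65 and 7.28 in Crebbp+/- MEFs, against 7.52, 7.14, 7.85 and 7.18 in WT MEFs, a difference of -0.41 ± 0.28 (limma, adjusted p = 0.781).

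In MEFs, 1 embryo of each genotype stood high for several interferon targets, of which Usp18, Ifit1 and Irf7 stayed under the minimum in all 8 samples. The Crebbp+/- embryo of litter 2 was the highest of its genotype for Isg15, Usp18 (6.10, others 3.94 to 4.68), Ifit1 (5.64) and Ifit3. The WT embryo of litter 3 was the highest of its genotype for Isg15, Usp18 (5.76, others 3.53 to 4.38), Ifit1 (6.00), Ifit3 and Irf7 (3.265). The other embryos had no common order: the WT embryo of litter 1 was the lowest of its genotype for Isg15 and the second highest for Ifit3. The WT embryo of litter 3 also had the highest summed level of the macrophage list (2427, against 1470 to 2066 in the other WT MEFs and 1626 to 1780 in Crebbp+/- MEFs) and of the granulocyte and monocyte list (1103, others at most 729.3). The Crebbp+/- embryo of litter 2 had 1644 and 604.0 for the same lists. The part of such cells in the interferon targets was not tested.

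**Figure D4:**
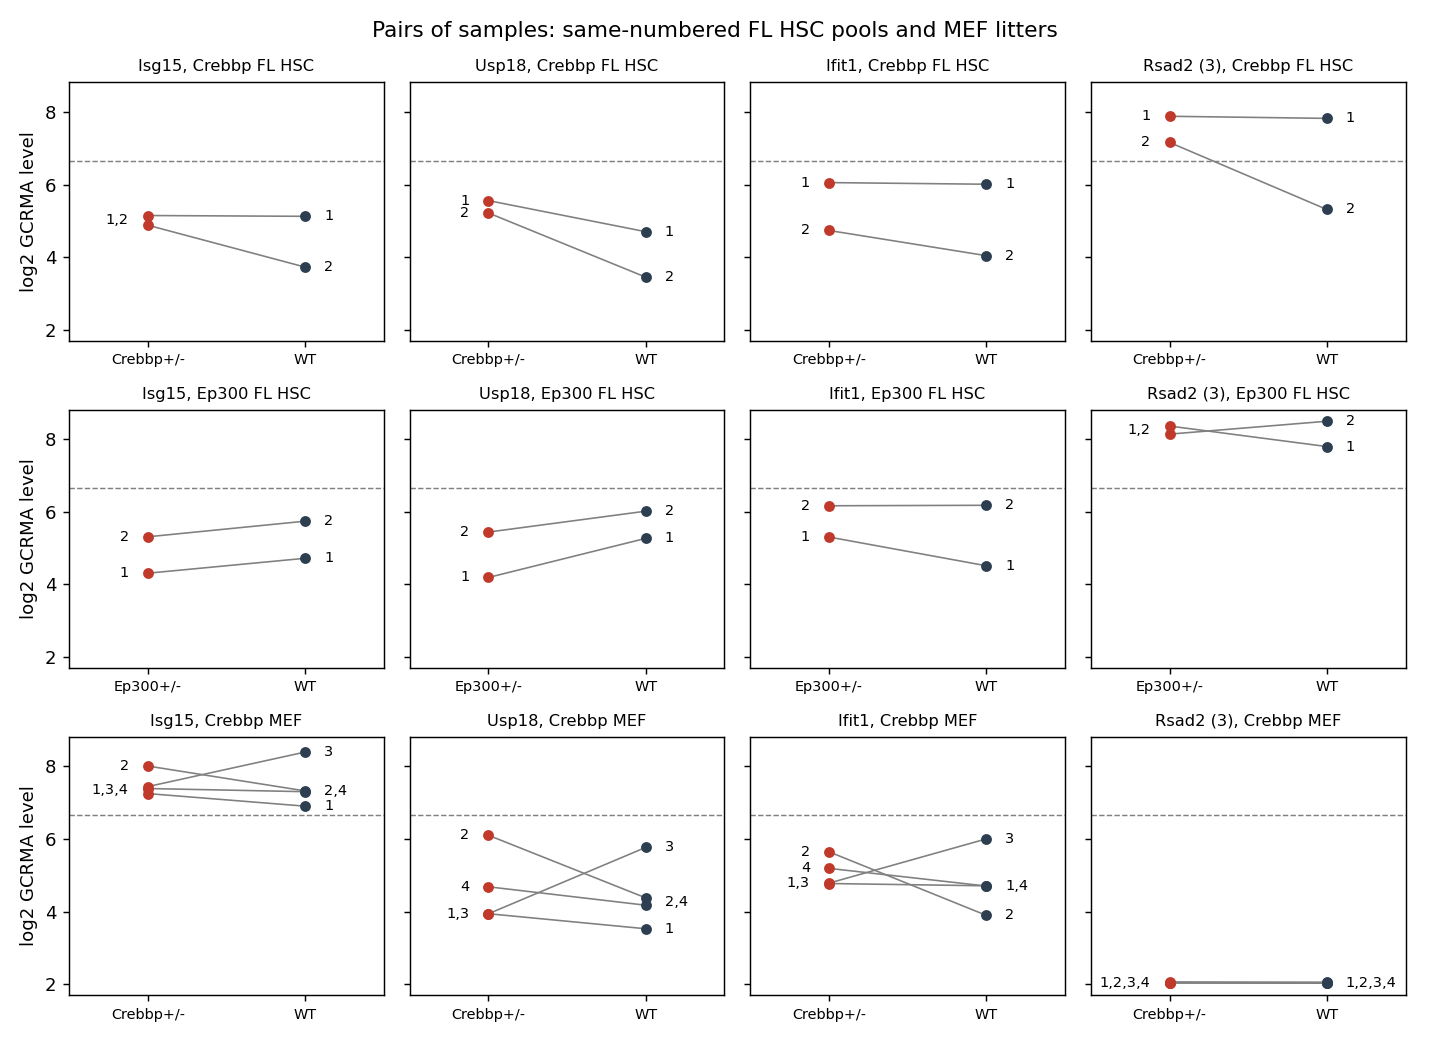
Log2 GCRMA level (vertical axis) of Isg15, Usp18, Ifit1 and Rsad2 (3) in mutant (red, left) and WT (dark blue, right) samples, joined by pair of the same number (FL HSC) or litter (MEF), with the number beside each point and a dashed line at the minimum of 6.64. In Crebbp FL HSCs WT sample 2 is the lowest for all 4 genes, in MEFs the WT embryo of litter 3 and the Crebbp+/- embryo of litter 2 are the highest for Isg15, Usp18 and Ifit1, and Rsad2 stays near 2 in all MEFs.

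Of the 6 pathway lists, 85 probe sets were tested in MEFs, 36 higher and 49 lower, with a median of -0.03 beside 0.02 over all. Ifit2, next to Ifit1 and Ifit3 in sequence and function, averaged 7.17 ± 0.18 in Crebbp+/- MEFs and 7.73 ± 0.27 in WT MEFs (SD, n = 4 each). All Crebbp+/- embryos lay below all WT embryos, as did 1.37% of the probe sets tested, and the difference of -0.56 ± 0.08 was not called (limma, adjusted p = 0.465). Socs3, a feedback inhibitor of cytokine receptors, differed by 0.61 and 0.73 at 2 probe sets, with all Crebbp+/- embryos above all WT embryos (2.19% of probe sets tested) and neither probe set called. None of the 20 probe sets of the Trim5 cluster reached the minimum in MEFs.

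Within the Cdkn1a samples, the genes whose levels were most like the mean of 6 member probe sets (1 for each gene tested) were Wdr26 (Pearson r = 0.975), Dad1 (r = 0.960) and Ankrd44 (r = 0.947), over 7 samples that share one normalization. Without the 2 samples farthest from the median, r was 0.901, 0.841 and 0.835. These genes were picked for the highest r among all genes outside the lists. Over so few samples that choice alone can make r high. By gene order in RefSeq, Rsad2 on chromosome 12 was the member with the fewest protein-coding genes, 7, between it and a gene with a probe set called in Cdkn1a-/- FL HSCs, which was Adi1, an enzyme of methionine salvage. At the called Adi1 probe set with the larger difference, levels were 4.88, 4.86, 5.42 and 4.87 in Cdkn1a-/- samples, against 10.03, 10.65 and 10.14 in WT samples. Its other 2 probe sets differed by -1.69 (called) and 0.28 (not called). Tmem18, the other gene on chromosome 12 with a called probe set, differed by -1.03 (limma, adjusted p = 0.0374). Cmpk2, which adjoins Rsad2 and was looked up after the values were seen, stayed under the minimum in all 7 samples.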

How the data were processed

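RNA of sorted FL HSCs and of MEFs was read on Affymetrix mouse arrays. FL HSC RNA (12 ng) was amplified before labelling. For MEFs the study's methods and its labels differ on amplification. The authors deposited log2 values made with GCRMA (version not given in the sources used here), run apart on the 4 groups of arrays. From these, 64 control probe sets were left out, technical replicates were averaged, and limma 3.58.1 in R 4.3.3 tested every probe set with at least 1 sample at log2(100) or above. Crebbp and Ep300 FL HSCs shared a fit with a block per same-numbered pair, after the paired test of the methods. Cdkn1a samples were unpaired, and MEFs had a block per litter, as labelled (deviations of littermates correlated at 0.186 to 0.461). A call needed an adjusted p (Benjamini-Hochberg) under 0.05 and a fold over 1.5. The fits were tested on simulated data. Named were all probe sets of the members, called probe sets of each list and those with the smallest p up to 3 per list, and the 3 genes most like the members. Members and lists were chosen with earlier results of these data known. Each pool or embryo is 1 sample. Alternatives were filters, centring, prior, blocks, technical replicates, left-out samples and the methods' t-test. That t-test was paired as the methods state, except for the Cdkn1a samples, where it was run unpaired. Presence calls were not used here.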

Additional observations from a re-analysis of the deposited data

Results flagged for a closer look

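Of 14 groups of 4 samples and a member probe set that could be examined for a sample far from the others, 1 stood out. Irf1 read 8.985 (log2) in the WT MEF of litter 1, against 8.72 to 8.75 in the other 3 WT MEFs, a gap of nearly the whole range of the group. Chance sets apart about 1 in 20 groups of this kind. Without litter 1 the Irf1 difference between Crebbp+/- and WT MEFs was 0.22 (log2), and it was not called with or without it.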

How the results depend on the processing

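No alternative limma fit called a member probe set in any comparison. The methods' t-test at an unadjusted p, run unpaired for Cdkn1a, called 1, Rsad2 (3) in Cdkn1a-/- FL HSCs. The count of probe sets called in Crebbp+/- FL HSCs depended most on the setting: 51 became 0 with no level filter, with no replicate block, with either technical replicate alone, with only the 4 samples of the experiment, without either pair (0 to 0) and by the methods' t-test after adjustment, and 625 with an interquartile range filter, 208 with centred arrays, 877 with trend and robust and 199 by the methods' t-test unadjusted. Centring split the calls into 41 higher and 167 lower, and trend and robust into 410 higher and 467 lower, beside 10 and 41. Of the pathway lists 5 probe sets were called there, all higher, with the range filter and with trend and robust, and 1 of the Trim5 cluster with trend and robust alone. In Ep300+/- FL HSCs the methods' t-test called 11 unadjusted. In Cdkn1a-/- FL HSCs the count was 42 with no filter and 38 to 87 leaving out a sample. It was 548 (unadjusted) and 141 (adjusted) by the t-test, here unpaired where the methods name a paired test. The Trim5 count was 5 with the range filter, 8 (unadjusted) and 5 (adjusted) by that test, the Ifi200 count 1 with no filter and 1 to 2 leaving out a sample, and the pathway count 0 with no filter or with trend and robust, 0 to 1 leaving out a sample and 5 by that test unadjusted. A replicate block on the numbers 1 to 3, which share only a number (correlations of -0.045 to 0.287), left 6 calls, with 0 in the Trim5, Ifi200 and pathway lists. MEF calls were 2 with no replicate block, 0 to 2 leaving out a litter and 61 by the methods' t-test unadjusted, 1 of them in the pathway lists.

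Directions turned for small differences. Irf1 in Crebbp+/- FL HSCs was 0.071 with technical replicate 2 and -0.225 to 0.106 leaving out a pair, and Rsad2 (3) in Ep300+/- FL HSCs -0.079 with technical replicate 2 and -0.355 to 0.565 leaving out a pair. Leaving out a sample of the Cdkn1a experiment gave -0.195 to 0.150 for Irf8 (1) (0.092 with the replicate block), -0.201 to 0.704 for Usp18 and -0.527 to 0.047 for Ifit1. Leaving out a litter gave -0.172 to 0.373 for Isg15 in MEFs. The causes were not tested.

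With 2 pairs, 7 samples or 4 litters, differences of the size of most members fall within the intervals given, and values near the minimum of 6.64 are set partly by background correction. Genotype and stock cannot be told apart for Cdkn1a.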
